A study of Caenorhabditis elegans with 2 samples.

Results

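The 257 sites described here are the ZFP-3 peaks of chromosome X that lay away from tRNA genes. They came from the authors' conservative list of 2010 peaks, made from both libraries and thresholded on the irreproducible discovery rate (IDR), a measure of how well peak ranks repeat between replicates. An X peak was kept where its summit, the base of highest enrichment, was over 100 bp from every tRNA gene of Ensembl release 115. This rule set aside 106 X peaks at tRNA genes, and the same rule left 1549 autosomal peaks as the comparison set. The rule used position alone, so signal, gene class and sequence were free to vary among the members. On the excluded side of the limit, the nearest summits were 55, 57, 58, 76 and 91 bp from a tRNA gene, with signals of 87.3, 79.7, 56.8, 138 and 77.2. On the included side they were 158, 179, 203 and 218 bp away, with signals of 16.5, 15.7, 18.8 and 218.

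Chromatin immunoprecipitation with sequencing (ChIP-seq) was performed on whole L4 larvae of Caenorhabditis elegans strain RW12271, in which CRISPR had placed TY1, EGFP and 3xFLAG tags on the zfp-3 gene, itself on X. The larvae were 48 h old, from L1 animals synchronised by starvation after bleaching, and their chromatin was sonicated to 200 to 800 bp and precipitated with an antibody against GFP. The 2 libraries are biological replicates of 1 group, both of this edited strain and stage, and sex was not recorded in the labels. Peaks of an untagged strain were not analysed here, and a whole-animal sample does not separate tissues. Read depth cannot be read from peak lists and is unknown. The signal of a peak is the authors' own value of unstated scale, so it was compared within a list only.

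ZFP-3 is named as a zinc finger protein, a class in which small zinc-bound folds often contact DNA. In hermaphrodites of this species the dosage compensation complex, a relative of condensin, binds both X chromosomes and lowers their transcription. The complex loads at recruitment elements on X that share a DNA motif with the core GCGCAGGG, and spreads from them along the chromosome. X is also known to hold few genes of germline function, many of which lie on autosomes.

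The summit sequences are shown first because the strongest X sites shared letters that the autosomal sites of the same list lacked. Each line gives the summit base with 50 bases on either side, on the plus strand of ce11, from the RefSeq copy of WBcel235, whose chromosome lengths match ce11. Capitals mark GCGCAGGG, GCGAAGGG or AGACGCAG on either strand, the other strand reading CCCTGCGC, CCCTTCGC or CTGCGTCT. The first group is the X sites ranked 1, 2, 4, 5, 18 and 19 by signal, which hold GCGCAGGG, called the recruitment core here from background knowledge of the motif. No list of known recruitment sites was used, so which of these sites are known ones was not determined. The site inside mom-1 holds it at 2 places, and 4 of these sites also hold GCGAAGGG.
nspc-17 upstream, chrX:14525855-14525955: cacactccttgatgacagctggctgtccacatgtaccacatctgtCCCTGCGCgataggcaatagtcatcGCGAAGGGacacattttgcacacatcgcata
W02H3.t1 intergenic, chrX:11094168-11094268: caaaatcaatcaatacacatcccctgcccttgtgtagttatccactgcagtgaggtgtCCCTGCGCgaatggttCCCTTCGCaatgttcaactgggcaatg
mom-1 intron, chrX:6296532-6296632: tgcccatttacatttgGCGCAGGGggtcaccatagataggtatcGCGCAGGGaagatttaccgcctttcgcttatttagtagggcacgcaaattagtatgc
F20B6.9 intergenic, chrX:4209248-4209348: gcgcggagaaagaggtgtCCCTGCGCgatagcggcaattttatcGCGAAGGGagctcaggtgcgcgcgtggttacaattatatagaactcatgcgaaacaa
pks-1 exon, chrX:5429505-5429605: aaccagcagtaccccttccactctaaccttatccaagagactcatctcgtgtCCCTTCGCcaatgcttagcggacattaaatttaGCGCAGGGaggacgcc
gtr-1 intergenic, chrX:806640-806740: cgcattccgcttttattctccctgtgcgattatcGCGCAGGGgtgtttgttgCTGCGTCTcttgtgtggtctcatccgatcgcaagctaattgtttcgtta
The next site, ranked 3, holds GCGAAGGG alone, and the one after it, ranked 45, holds AGACGCAG. That string lay at 83 of the 1549 autosomal summits (5.36%) and at 8 of the 257 X summits (3.11%).
K02D3.5 intergenic, chrX:13700822-13700922: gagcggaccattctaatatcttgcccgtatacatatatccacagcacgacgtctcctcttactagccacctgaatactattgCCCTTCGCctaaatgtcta
epn-1 upstream, chrX:14818972-14819072: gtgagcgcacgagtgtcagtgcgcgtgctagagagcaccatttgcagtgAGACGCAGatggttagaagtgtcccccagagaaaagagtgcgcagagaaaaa
The last sites hold none of these strings: the promoter of puf-9 (rank 13), a pair of summits inside the noncoding RNA gene C30E1.9 (ranks 8 and 10), and the promoter of zfp-3 itself (rank 82).
puf-9 upstream, chrX:5841269-5841369: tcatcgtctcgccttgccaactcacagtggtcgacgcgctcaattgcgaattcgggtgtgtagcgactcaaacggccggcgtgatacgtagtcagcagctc
C30E1.9 first summit, chrX:16931819-16931919: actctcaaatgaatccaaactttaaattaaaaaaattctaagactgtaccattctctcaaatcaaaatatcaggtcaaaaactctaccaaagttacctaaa
C30E1.9 second summit, chrX:16932537-16932637: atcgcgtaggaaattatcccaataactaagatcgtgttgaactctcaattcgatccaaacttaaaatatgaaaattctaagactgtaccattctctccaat
zfp-3 upstream, chrX:1446921-1447021: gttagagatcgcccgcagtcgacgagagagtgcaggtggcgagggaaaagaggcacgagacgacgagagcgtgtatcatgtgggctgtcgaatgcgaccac

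The 8-letter core GCGCAGGG, on either strand, lay within 50 bp of the summit of 13 of the 257 X peaks, or 5.06% (95% exact binomial interval 2.72 to 8.49%). None of the 1549 autosomal peaks held it there, which allows a share of up to 0.194% by the limit of 3 counts, with an exact binomial upper bound of 0.238%. In windows 400 bp to the side of the same summits, the core was in 0 X windows and 1 autosomal window. Of all possible windows of this length, 0.0422% on X and 0.0265% on the autosomes hold it. The reference has 81 copies of the core on X and 233 on the autosomes, so the string is not confined to X. Of the 81 X copies, 14, or 17.3% (9.78 to 27.3%), lay at a member's summit, and 0 of the 233 autosomal copies lay at a summit of the comparison set. In the longer ranked list behind the conservative one, which is not thresholded, 22 of the 81 X copies (27.2%) and 24 of the 233 autosomal copies (10.3%) lay at a summit. Copies of other searched strings met summits of that list too. The shares on X and the autosomes were 15.5 and 16.0% for AGACGCAG, 17.7 and 13.2% for GTTCGANTC, and 8.36 and 11.8% for GAGAGAGA. The autosomal share of the core was below each of these autosomal shares. The longer string CGCGCAGGG, which contains the core, occurred 33 times on X, 9 of them at a member's summit, and 44 times on autosomes, at no summit of the comparison set. At summits of the ranked list lay 13 of its X copies (39.4%) and 6 of its autosomal copies (13.6%). That autosomal share was above those of GTTCGANTC and GAGAGAGA and below that of AGACGCAG.

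The second string, GCGAAGGG, which differs from the core at a single letter, lay at 10 X summits, or 3.89% (1.88 to 7.04%), and at 0 of 1549 autosomal ones. It is present in 0.0739% of X windows and 0.0550% of autosomal windows, and 4 X sites held both strings. At summits of the ranked list lay 30 of its 140 X copies (21.4%) and 61 of its 491 autosomal copies (12.4%). That autosomal share lay between those of GAGAGAGA and AGACGCAG. With any letter at the place where both differ, GCGNAGGG lay at 19 X summits (7.39%) and 2 autosomal ones (0.129%). Together, 19 X peaks held the core or the second string. These strings were picked after the summit sequences of X had been looked at: the core is known from recruitment elements, the second string came from ranking 8-letter strings at X summits, and 7 strings were searched. Their counts are therefore a description of these peaks, with no test, and a match does not show which protein bound there. In the lists of the libraries taken singly, the core lay at 12 of 131 X summits and 1 of 723 autosomal ones for replicate 1, and at 9 of 123 and 1 of 697 for replicate 2.

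The sites with the core were mostly strong ones. The strongest X peak lay in intergenic sequence at -724 bp from the 5′ end of nspc-17, a member of a nematode-specific peptide family (chrX:14525794-14526030), with a signal of 361, and with 193 in replicate 1 and 158 in replicate 2. The next lay between genes, at -1455 bp from the 5′ end of the tRNA gene W02H3.t1 (chrX:11094112-11094323), with a signal of 354, and with 177 and 164 in the replicates. The site in an intron of mom-1, the worm Porcupine enzyme needed to secrete Wnt signals (chrX:6296486-6296658), had 292, and 154 and 114. In each of these, both replicates gave a peak past their own thresholds.

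The intergenic site whose nearest 5′ end is that of F20B6.9 had a signal of 282, and 131 in replicate 1 and 153 in replicate 2. The exonic site in pks-1, which encodes a polyketide synthase, had 227, and 117 and 109. The site near gtr-1 had 224, and 119 and 86.1. The site at -644 bp from the 5′ end of ins-39, an insulin-like peptide gene, had 175, and 80.0 and 71.1. Those near C18A11.13 and T24D8.6 had 218 and 134.

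The last 4 core sites were weaker, at R160.11 (86.3), inside the pseudogene T26C11.3 (72.4), a second summit near F20B6.9 (65.0) and a second summit in Y41G9A.17 (7.67), which overlaps the same library peaks as its stronger neighbour. Over the 13 core sites the median signal was 218, against 79.8 for the 244 X peaks without the core. With the X peaks split by signal into 4 sets of like size, from high to low, the core lay at 9, 1, 2 and 1 peaks. Of the 25 strongest X peaks, 7 held the core and 10 held the core or the second string. Of the 13 sites, 9 were intergenic, 2 were in introns, 1 in an exon and 1 in a pseudogene, and 2 of the intergenic ones were in promoter windows. They ran from 0.807 to 14.5 Mb of the 17.7 Mb chromosome.

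**Figure D1:**
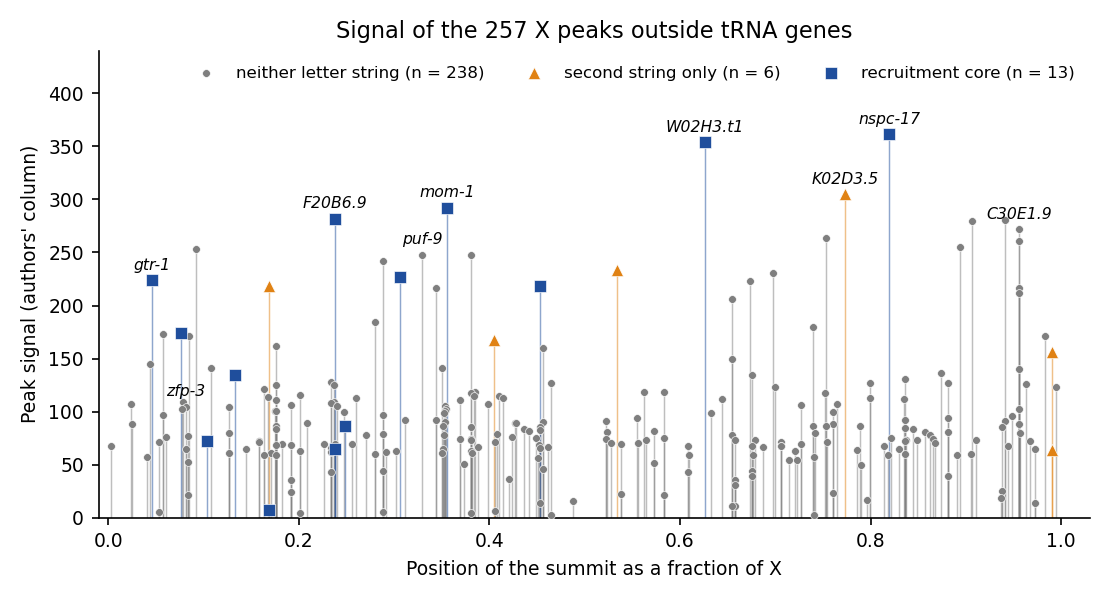
Signal of each of the 257 X peaks (vertical axis, the authors' value from the conservative list) against the position of its summit as a fraction of X. Squares mark the 13 peaks with the recruitment core, triangles the 6 with the second string only, and circles the 238 with neither; the squares include 4 of the 5 highest peaks.

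Several of the strongest X sites held neither string. The peak whose nearest gene is mxl-3, which encodes a Max-like factor of the intestinal fasting response, had a signal of 264 in intergenic sequence (chrX:13349215-13349623), with 127 in replicate 1 and 122 in replicate 2. The promoter peak of puf-9, a Pumilio-family repressor of messenger RNAs (chrX:5841243-5841352), had 248, and 117 and 120.4. The summit of fbxb-58, an F-box gene (chrX:1627089-1627210), had 253, and 126 and 129. Within the ranked list of each library, the puf-9 peak was at rank 116 in replicate 1 and 89 in replicate 2. The promoter peak of serp-1.1 (chrX:15841210-15841293) had 255, with 184 (rank 38) in replicate 1 and 79.6 (rank 238) in replicate 2.

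Other sites among the 25 strongest were near F22H10.2 (280.5), T27A8.8, a small nucleolar RNA gene (279.6), in an intron of C42D8.9 (242), and near F19H6.5 (231) and F55G7.5 (223). Second-string sites were those near K02D3.5 (305), ZK899.10 (233) and in an intron of Y41G9A.17 (219). Each of the 25 strongest X peaks was met by thresholded peaks of both libraries. By class, 15 of these 25 were intergenic, 6 in noncoding RNA genes, 5 in promoter windows, 3 in introns and 1 in an exon, and a promoter window can overlap any other class.

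Along X, the peaks were spread more evenly than along the autosomes. The middle of 3 equal parts of the chromosome held 85 of the 257 X summits, or 33.1% (27.4 to 39.2%), against 697 of 1549 autosomal summits, or 45.0% (42.5 to 47.5%). The odds ratio was 0.606 (95% interval 0.459 to 0.800, adjusted p = 0.00118 by a two-sided Fisher exact test over 9 such tests). The share on each of the 5 autosomes lay between 39.4 and 50.3%, above that of X. From the left end, 10 equal parts of X held 21, 29, 29, 32, 27, 16, 24, 28, 25 and 26 peaks. The fullest part held 2.00 times the emptiest, against 2.37 to 7.67 times on the autosomes. Peaks share libraries and neighbourhoods, so p-values over peaks describe these libraries and are not a sample of animals.

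**Figure D2:**
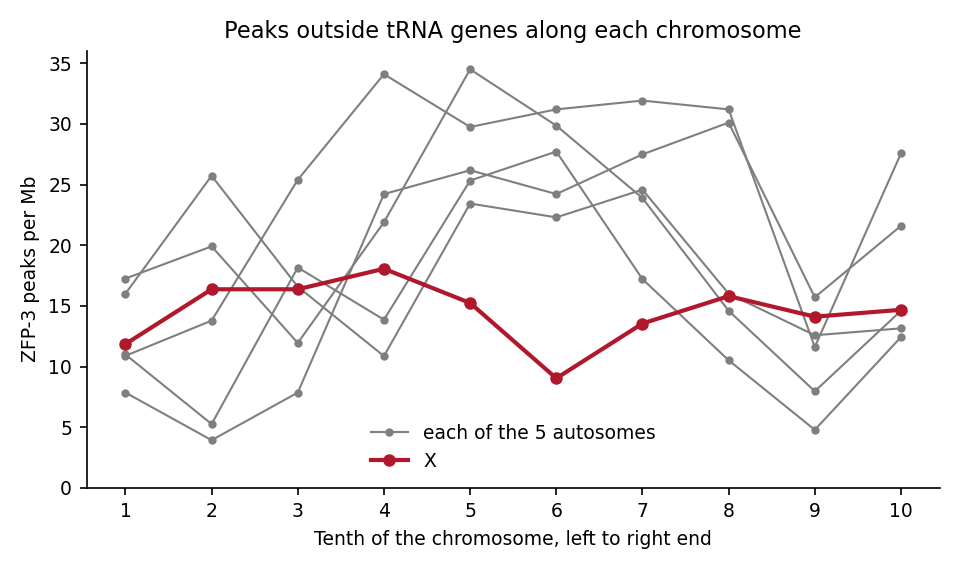
Peaks outside tRNA genes per Mb (vertical axis) in 10 equal parts of a chromosome (horizontal axis), with X as the thick line and each of the 5 autosomes as a thin line. X stays between 9.03 and 18.1 peaks per Mb. Chromosomes I, III and V are highest in parts 5, 4 and 6, II in part 8 (30.1) and IV in part 2 (25.7).

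X carried 14.5 peaks per Mb. It held 14.2% of all peaks outside tRNA genes against 17.6% of the eligible base pairs, a ratio of 0.807 (adjusted p = 0.000224 by a two-sided exact binomial test over 6 chromosomes). The lower density was not particular to X, since chromosome V stood at 0.811, while chromosome III stood at 1.37. In each library's own list, with fewer X peaks (131 and 123), the ratio kept its direction but was not past the threshold. It was 0.870 (replicate 1, adjusted p = 0.120, exact binomial test) and 0.851 (replicate 2, adjusted p = 0.116, exact binomial test). Against the share of protein-coding genes in place of base pairs, the direction turned, with a ratio of 1.04 and an adjusted p of 0.493 by the exact binomial test.

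Neighbouring X summits lay 27.0 kb apart at the median, with quartiles of 2.41 and 109.7 kb. Of 256 neighbouring pairs, 45 were within 1 kb of each other. The longest stretch with no member ran from 8646730 to 9261734, or 615 kb. The autosomes had median spacings of 15051 to 19726 bp, all shorter than on X.

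X peaks lay at promoters less often than autosomal peaks. A promoter window, taken from 1000 bp before to 200 bp after the 5′ end of a protein-coding gene, held 71 X summits, or 27.6% (22.3 to 33.5%), against 648 autosomal summits, or 41.8% (39.4 to 44.3%). The odds ratio was 0.533 (0.399 to 0.713, adjusted p = 6.10e-05 by the Fisher exact test). Such windows cover 17.6% of X and 22.3% of the autosomes, so both sets held more summits in them than their length alone would give, 1.57 times on X and 1.88 times on the autosomes. The autosomes ranged from 39.2 to 47.0%, and X was below each.

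Exons held 47 X summits, or 18.3%, against 27.4% of autosomal ones (odds ratio 0.598, adjusted p = 0.00470, Fisher exact test). Intergenic sequence held 143, or 55.6%, against 46.3% (odds ratio 1.45, adjusted p = 0.0102, Fisher exact test). That difference was not past the threshold in the list of replicate 1 (odds ratio 1.27) or of replicate 2 (1.39). X is also richer in intergenic base pairs, at 41.0% against 31.6%, and poorer in exonic ones, at 24.98% against 30.5%. The base-pair shares thus differ in the same directions as the summit shares. Set against base pairs, intergenic summits were 1.36 times their share on X and 1.46 times on the autosomes, so X was not the higher. Exons gave 0.732 on X and 0.896 on the autosomes, and noncoding RNA genes 3.49 and 3.94. Introns held 17.5% of X and 22.2% of autosomal summits (odds ratio 0.749, 0.532 to 1.05), and noncoding RNA genes 8.17% and 6.26% (1.35, 0.832 to 2.20), neither past the threshold (adjusted p = 0.152 and 0.309, Fisher exact tests). Summits that were intergenic and outside every promoter window made up 35.8% of X peaks and 18.1% of autosomal peaks. The base-pair share of that combined class was not computed, so this contrast is not set against the make-up of X.

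**Figure D3:**
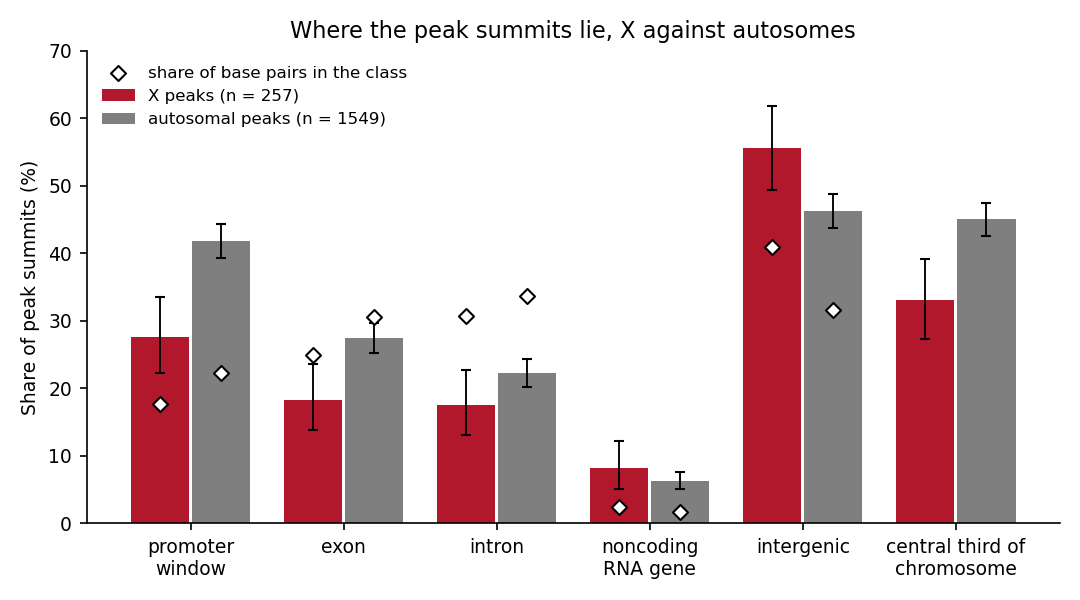
Share of summits (vertical axis, percent) in each gene class and in the middle of 3 equal parts of the chromosome for 257 X peaks and 1549 autosomal peaks, with 95% exact binomial intervals. Diamonds give the share of base pairs in a class on X and on the autosomes; the X bar is below the autosomal bar for promoter windows, exons, introns and the chromosome's middle, and above it for noncoding RNA genes and intergenic sequence.

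Distances to genes were longer on X, given here as a description. The median X summit was 1421 bp from the nearest 5′ end of a protein-coding gene, against 878 bp on the autosomes. Of X peaks, 97, or 37.7%, were over 2000 bp from every such end, against 26.9% of autosomal peaks. Promoter windows also cover less of X, at 17.6% of base pairs against 22.3% on the autosomes. Distances from positions at large were not computed, so these contrasts are not set against a background. Counted by gene, 68 of 2731 protein-coding genes of X had a summit in the promoter window, or 2.49%, against 772 of 17242 on the autosomes, or 4.48% (odds ratio 0.548, 0.427 to 0.704, adjusted p = 3.94e-06, Fisher exact test). By autosome the share was 2.78 to 6.97%. Leaving out the 19 peaks with the core or the second string, added as an alternative after seeing the data, changed none of the calls on density, position, gene class or bound genes.

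Within promoter windows, the 71 X summits lay upstream of the 5′ end as a rule, with a median of -303 bp and quartiles of -608 and -182 bp. The median was -210.5 bp on the autosomes. The strongest beyond those already given was at hsp-3, which encodes the Hsp70 chaperone of the endoplasmic reticulum, with a signal of 217, and 125 in replicate 1 and 85.9 in replicate 2 (chrX:6091958-6092293). Its summit was at -2 bp from the 5′ end and its window held AGACGCAG. ftt-2, which encodes a 14-3-3 protein, had a summit at -538 bp with a signal of 206, and 126 and 94.3. Both genes had a peak past the threshold in both libraries.

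gpd-3, a glyceraldehyde-3-phosphate dehydrogenase gene of glycolysis, had an exonic summit 84 bp past its 5′ end with a signal of 162, and 82.4 and 84.8 in the replicates. Its neighbour gpd-2 is a close copy, 86.7% of the 12-letter strings at the summit recur within 2000 bp, and how reads of both copies were placed is not given, so the sites at the pair are uncertain. trap-2, a translocon-associated gene of protein entry into the endoplasmic reticulum, had 145 at a summit it shares with the window of ile-2. epn-1, the endocytic adaptor epsin, had 130.5, and 95.8 and 48.0. sir-2.2, a mitochondrial sirtuin gene, had 117 in an exon near its start.

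Inside genes, the summit in an intron of sams-1, the S-adenosylmethionine synthetase gene, had 135, and 81.0 and 44.4 in the replicates. vang-1, a planar polarity gene, had 121 in an exon, and gei-15 had 118 in an exon. In the window upstream of zfp-3 lay a peak of middling strength (chrX:1446803-1447138). Its summit was at -328 bp from the 5′ end, in intergenic sequence, with a signal of 105, rank 82 of 257, and 61.8 in replicate 1 and 47.2 in replicate 2. The tagged protein was thus found at the upstream sequence of its own gene in the ranked lists of both libraries, and past the threshold in that of replicate 1.

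Noncoding RNA genes held 21 X summits, 11 of them also in a promoter window and 0 inside a protein-coding gene. Their strongest were in C30E1.9. This locus (chrX:16929914-16944683) had 7 summits inside and 1 just upstream, over 14.6 kb, with signals of 80.0 to 272. The main interval there, chrX:16930372-16932131, was the widest of all members at 1760 bp and carried 3 summits with signals of 272, 216 and 212. It overlapped 1 library peak of 149 in replicate 1 and 146 in replicate 2. The printed windows of ranks 8 and 10 share a run of 27 letters. In 3 of the 8 windows, at least 50% of the 12-letter strings occur again within 2000 bp on the same strand, against 9 of all 257 X members, and how reads were placed there was not measured.

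R03E9.10, another noncoding RNA gene, had 247, and 131 and 119.6 in the replicates. An intergenic site 1148 bp past the 5′ end of rncs-1, whose RNA inhibits Dicer, had 173, with 105 and 69.2. One near tts-1, a long noncoding RNA known from long-lived and dauer animals, had 172, with 83.3 and 70.4. These sites were past the threshold in both libraries. Across X, 44 of 2853 noncoding RNA genes and pseudogenes other than tRNA and piRNA genes had a summit in their window, or 1.54%, against 355 of 8089 on the autosomes, or 4.39%. Some of these windows overlap a protein-coding promoter: W06B11.7 and W06B11.9 share the summit of puf-9, and F52D10.7 and F52D10.12 share that of ftt-2.

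The bound genes of X were counted in 37 gene lists, of which 33 had X members and 18 had a bound one. Counts of protein-coding lists are read beside the shares of 2.49% on X and 4.48% on the autosomes, and those of RNA genes beside 1.54% and 4.39%. Among genes of protein synthesis, 1 of 2 cytosolic ribosomal protein genes of X was bound, rpl-11.2 (signal 105), and 31 of 79 on the autosomes. Of X translation factor genes, 1 of 3 was bound, eef-1A.2 (81.6), which encodes the elongation factor that brings charged tRNA to the ribosome, and 8 of 43 on the autosomes. The eef-1A.2 peak met a thresholded peak of neither library. Of heat shock genes, 1 of 5 was bound, hsp-3, and 15 of 58 on the autosomes. X carries few members of these groups. The germ line list had 1 of 2 bound on X and 3 of 77 on the autosomes. Its bound X member, puf-9, is also in the heterochronic list, counted there by the same summit.

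Of the vacuolar ATPase genes, which encode the proton pump of acidic organelles, 2 of 3 on X were bound, vha-20 (113) and vha-12 (109), and 1 of 18 on the autosomes. Of heterochronic genes, which time larval development, 2 of 6 were bound, puf-9 and ain-1 (85.8), a GW182-like partner of microRNAs, and 3 of 10 on the autosomes. Of intestinal and yolk genes, 2 of 23 were bound, the yolk protein genes vit-2 (79.0) and vit-5 (35.2), and 1 of 54 on the autosomes. These yolk summits lay 148 and 52 bp past the 5′ end. Stronger summits lay further inside the same genes, at 1430 bp in vit-2 (96.9) and 2565 bp in vit-5 (107). How reads were placed among related yolk genes is not given, and the measure of repeated sequence reaches only 2000 bp. Guidance and matrix genes had 2 of 25, sym-4 (127) and unc-115 (51.4), against 2 of 53. The signalling list had 1 of 19, sem-5 (74.9), the Grb2-like adaptor of Ras signalling, against 0 of 67. Single bound members were ins-39 among 38 neuropeptide and insulin genes, fbxb-58 among 17 F-box and related genes and zfp-3 among 10 zinc finger genes, against 2 of 108, 8 of 395 and 4 of 53 on the autosomes. The promoter-window peaks of vit-2, vit-5, unc-115 and sem-5 met a thresholded peak of neither library. These are counts of few genes and carry no test.

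Other lists had no bound member on X: ion channels (0 of 59), chemoreceptors (0 of 34), collagens and cuticle (0 of 30), nuclear hormone receptors (0 of 27), homeobox (0 of 27), chromatin and SynMuv genes (0 of 19) and muscle (0 of 15). On the autosomes the chromatin list had 19 of 78 bound, ion channels 3 of 193, chemoreceptors 7 of 1279, collagens and cuticle 4 of 151, nuclear hormone receptors 6 of 247, homeobox genes 0 of 67 and muscle 2 of 44. Genes of dosage compensation and sex determination had 0 of 6 on X and 0 of 22 on autosomes. Of RNA genes, 3 of 33 small nucleolar RNA genes of X were bound against 83 of 313 on autosomes, and 2 of 74 microRNA genes, cel-mir-55b (79.8) and cel-mir-47 (64.1), against 18 of 187. The peaks of these microRNA genes met a thresholded peak of neither library. lincRNA genes had 2 of 38, linc-103 (106) and linc-78, which shares its summit with rpl-11.2, against 3 of 156.

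X and autosomal peaks had like signals. The median was 81.0 in both sets, with quartiles of 64.5 and 113 on X and 65.4 and 113 on the autosomes. Of X peaks, 49.8% were above the autosomal median (odds ratio 0.994, 0.763 to 1.29, adjusted p = 1 by the Fisher exact test), so shifts within that interval cannot be told from none. In the thresholded list the highest X signal was 361, and the highest on each autosome was 460.0 to 778. The ranked list also holds X peaks past the same score that the thresholded list leaves out, with signals of up to 1439.9. Of the 100 strongest peaks of the whole list, tRNA sites of all chromosomes included, 15 were members. Members are 257 of the 2010 peaks of that list, so this count is near their share. Most members, 221, had the most frequent width of 336 bp.

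Beyond the strongest sites, fewer X peaks were met in both libraries. Of the members, 111 (43.2%) were met by the thresholded list of replicate 1 and 110 (42.8%) by that of replicate 2. By autosome these shares were 35.3 to 42.6% and 38.1 to 42.9%. Both libraries covered 79, or 30.7%, against 26.5% of autosomal peaks (odds ratio 1.23, 0.925 to 1.64, adjusted p = 0.222, Fisher exact test). A further 63 were in 1 library only and 115 (44.7%) in neither. Among autosomal peaks 720 (46.5%) were in neither, a like share. In the longer ranked lists all 257 had a peak in replicate 1 and 253 in replicate 2. There the signal ran from 27.8 through a median of 44.8 to 193 in replicate 1, and from 26.9 through 42.1 to 164 in replicate 2. Over the 253 X peaks with both values, Spearman's rho was 0.545 and Pearson's r of the log10 signals 0.753, a description over peaks of the same libraries, some of which share a library peak.

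**Figure D4:**
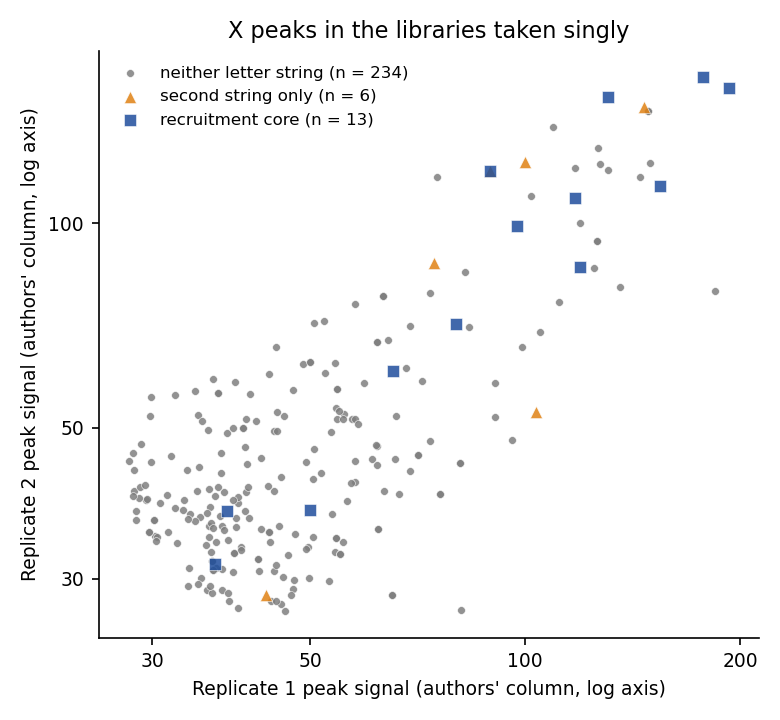
Signal of the library peak that overlaps each X member in replicate 1 (horizontal axis, log scale) and replicate 2 (vertical axis, log scale), for the 253 members with both; the scales of the lists may differ. Squares mark the recruitment core and triangles the second string only; values run up to 193 and 164, and most of the squares lie in the upper right.

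The short strings with an excess at autosomal summits were also found at X summits. The 5 6-letter strings with the largest excess at autosomal summits over windows 400 bp away partly overlap one another and were chosen without X. At X summits ACGCAG was present in 8.56% of windows and 0.389% of flanks (adjusted p = 2.86e-05, exact McNemar test over 5 strings). AGAGAC was in 10.1 and 2.72% (adjusted p = 0.00219, exact McNemar test), and CGTCTC in 9.34 and 2.72% (adjusted p = 0.00386, exact McNemar test). GACGCA was in 6.61 and 1.56% (adjusted p = 0.00900, exact McNemar test), and GAGAGA in 10.9 and 4.67% (adjusted p = 0.0113, exact McNemar test). All 5 passed in the conservative list, 4 in the list of replicate 1 and 0 in that of replicate 2, where the adjusted p was 0.182 to 0.238 (exact McNemar tests).

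In autosomal summits the same strings were in 9.68% (ACGCAG) to 14.5% (GAGAGA) of windows, and no X share was shown to differ from the autosomal one (adjusted p of 0.361 to 0.668, Fisher exact tests). The longer AGACGCAG lay at 8 X summits, or 3.11% (1.35 to 6.04%), and at 83 autosomal summits, or 5.36% (4.29 to 6.60%). It overlaps GACGCA and ACGCAG and is present in 0.275% of X windows and 0.575% of autosomal windows. The summit windows of X had 42.8% G and C against 34.9% in their flanks, and those of the autosomes 43.7 against 36.9%. Base composition moved with the strings in both sets, and its part in their counts was not tested.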

How the data were processed

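ChIP-seq peaks of tagged ZFP-3 in 2 replicate libraries of L4 larvae were analysed from deposited peak lists on ce11. Per the notes deposited with the files, each single-library list was made by the authors from that library's alignments and the series lists from both, with a further file common to all. The signal is the authors' deposited peak strength of unstated scale, and the score is the authors' deposited scaled IDR. Scores in the thresholded lists started at 830, an IDR of 0.01. The sources used here do not name the aligner or peak caller, and depth per library is unknown.

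Summits, tRNA genes and the 19973 protein-coding genes were matched on WBcel235 with Ensembl release 115. A member's value in a replicate is that of the overlapping (1 bp or more) peak in that library's ranked list, the strongest where several overlap; the lists' scales may differ. Peaks of the 2 libraries were the only replicates, so no mean or SD was taken. Fisher, binomial and McNemar exact tests were two-sided, with Benjamini-Hochberg adjustment within each family at 0.05, and intervals cover counting error only. Odds ratio intervals are Woolf intervals. The test of bound genes, the searched 8- and 9-letter strings and the measure of repeated sequence were added after values were seen. Tests were tested on simulated data.

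The members and lists were chosen with earlier results of these data known. Named genes were those at the 25 strongest X peaks, the 5 strongest of each class, zfp-3, up to 4 bound members of each gene list and the peaks nearest to the tRNA limit. Other names (trap-2, ile-2, epn-1, ftt-2, rncs-1, tts-1, and the weaker core sites) were chosen after their values were seen. Alternatives were each library's list, the other series list, stronger peaks, other tRNA distances, merged summits, and other windows, flanks, overlaps and expectations. Python 3.11.15 and SciPy 1.17.1 were used.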

Additional observations from a re-analysis of the deposited data

Results flagged for a closer look

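Some strong X peaks are in the ranked list behind the conservative list but not in the conservative list itself. The ranked list held 2062 peaks with a score of at least 830, of which 52 were absent from the thresholded list, 11 of them on X. They were flagged because they are a signal outside the peaks compared above. The strongest, at chrX:15810941-15811276, at -858 bp from the 5′ end of the pseudogene Y7A5A.11, had a signal of 1439.9, above the 778 of the strongest thresholded peak of any chromosome. It was ranked 1 in both replicates, with 795 and 849. Others lay near Y7A5A.11 again (398), R57.2 (332) and Y102F5A.1 (293), and none of the 11 held the core or the second string. At 10 of the 11 summits, at least 50% of the 12-letter strings recur within 2000 bp, against 9 of the 257 members (3.50%) and 34 of 1549 autosomal peaks (2.19%). The sources used here do not say why they were left out.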

How the results depend on the processing

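Of 156 alternative values over 17 results, 126 kept their direction and side of the threshold. The position of X peaks, their share in promoter windows and the share of bound genes kept theirs under every alternative run, with odds ratios of 0.517 to 0.664, 0.409 to 0.570 and 0.469 to 0.630. The density ratio lost its call in the lists of single libraries (0.851 to 0.870) and with summits only outside tRNA genes (0.903), and turned to 1.04 against gene numbers. The higher intergenic share of X summits lost its call in the single libraries (1.27 to 1.39), in the other series list (1.07) and in the stronger peaks (1.49). In the other series list the exon deficit fell short (0.683, adjusted p = 0.0892) and the noncoding RNA excess passed (2.33, adjusted p = 0.00384, Fisher exact tests). The signal odds ratio, never past the threshold, moved above 1 in stronger peaks (1.02), at tRNA distances of 0 bp (1.05) and 500 bp (1.01), with merged summits (1.13) and at the upper quartile (1.04), and replicate overlap moved to 0.867 with ranked lists. Strings past the threshold numbered 0 to 4 in single libraries and 1 in stronger peaks. The core share was 7.32 to 9.16% in single libraries. The cause was not tested. No paired analysis was possible because there is 1 group. Unknown depth limits what weaker sites can show.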
